A study of Rattus norvegicus with 12 samples.

Results

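Metabotropic glutamate (mGlu) receptors were followed in female rat prefrontal cortex on postnatal day 15 through 6 receptor genes, Grm5, Grm2, Grm3, Grm4, Grm7 and Grm8. They were read by 7 probes, which are all the non-control probes that carry one of these gene names on the array, and Grm4 had 2 of them. The 6 genes stand among 18688 genes tested. The receptors were chosen from earlier results of these samples in which Grm4 differed between betamethasone and control animals, so the values of that comparison are a description. Whether Grm4 passed a threshold there is stated only as part of how it was chosen, and is not a test of it.

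Total RNA from Sprague-Dawley rats was labelled and hybridised on 6 Agilent 2-colour arrays, with 4 animals in each of 3 groups. In the betamethasone with ketamine group, dams received 2 injections of betamethasone (0.4 mg/kg each), a synthetic glucocorticoid, on gestational day 15, and the female pups received 35 mg/kg ketamine, an NMDA receptor blocker, on postnatal day 14. In the betamethasone group, the pups of such dams received saline on postnatal day 14. In the control group, dams and pups received saline on the same days. Tissue was taken on postnatal day 15 per the sample descriptions, while 1 label field gives a different age. Per the labels, ketamine or saline was given on postnatal day 14 to rats that exhibited infantile spasms, and the labels do not say which animals had them or from which litters they came. No group received ketamine without betamethasone.

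mGlu receptors are G protein-coupled receptors for glutamate, the main excitatory transmitter of the cortex. Group I receptors, such as mGlu5, act through Gq and phospholipase C and lie mostly at the postsynaptic membrane. Group II (mGlu2 and mGlu3) and group III (mGlu4, mGlu6, mGlu7 and mGlu8) receptors act through Gi/o proteins and can lower cyclic AMP. Those of them that lie at nerve terminals restrain transmitter release, and mGlu3 is also made by astrocytes.

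Probe sequences of 4 receptors are shown because they decide which stretch of each transcript was measured. Coordinates are those of the array files, on the rn4 build, and all probes were 60 bases long. The Grm5 probe (chr1:144477224-144477283, plus strand) ended on the stop codon of the reading frame, printed in capitals, so it read the end of the coding sequence. The Grm7 probe (chr4:147088377-147201215, plus strand) covered 112839 bases of genome and the Grm8 probe (chr4:53976813-53983310, minus strand) covered 6498, so each crosses an intron and reads spliced RNA.
Grm5: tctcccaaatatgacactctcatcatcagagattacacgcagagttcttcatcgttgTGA
Grm7: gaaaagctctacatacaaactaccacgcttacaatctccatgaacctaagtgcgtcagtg
Grm8: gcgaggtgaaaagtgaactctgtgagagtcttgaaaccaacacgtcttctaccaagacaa
Both Grm4 probes lay at the end of the transcript, on the minus strand of chromosome 20. Probe 1 (chr20:5627795-5627854) covered transcript positions 4366 to 4425, and probe 2 (chr20:5627750-5627809) covered positions 4411 to 4470. They shared the 15 bases of the next line, at chr20:5627795-5627809. The line after it gives the last 15 bases of probe 2 (chr20:5627750-5627764), with the hexamer AATAAA, the usual signal for polyadenylation, in capitals. Searched on the printed strand alone, this hexamer stood in the last 15 bases of 1.76% of the 30367 non-control probes. The probes of Grm4 therefore measured neighbouring stretches of the same transcript end and are not independent readings of the gene.
Grm4 shared bases: GGTGATGGTCTCTGA
Grm4 probe 2 end: catttctAATAAAga
The Grm2 probe lay on the minus strand at chr8:111838413-111838472.

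Both channels of an array carried animals of 1 group, with samples 1 and 3 in Cy3 and samples 2 and 4 in Cy5. The 2 control arrays were on one slide and the other 4 arrays on another, so slide and treatment cannot be told apart in any comparison with control, whereas both betamethasone groups shared a slide. Principal component 1, with 43.3% of the variance, placed samples 1 and 2 of the betamethasone with ketamine group, which share an array, at 54.1 and 52.2. The other 10 samples fell between -20.1 and -6.81. On that array 3.87% of the spots lay in areas where many spots departed from the other arrays, but no receptor probe did. All 7 receptor probes were well above background and none was saturated in any of the 12 samples. The 6 cortical excitatory neuron markers (among them Slc17a7 and Tbr1) were well above background in every sample. So were 5 of 6 striatal and 4 of 5 thalamic neuron markers, and 71.4% to 81.5% of all spots in single samples. These counts therefore do not tell the brain region. All values below are log2 intensities after normalisation. Levels of different probes are not compared with each other, because the brightness of a spot also depends on its sequence.

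Grm4, the group III receptor of presynaptic terminals that is most abundant in cerebellar granule cells, had the lowest signal in the betamethasone animals. Probe 1 read 11.96, 12.18, 11.97 and 12.07 in the betamethasone with ketamine samples. It read 11.70, 11.80, 11.82 and 11.84 in the betamethasone samples. It read 12.23, 12.51, 12.45 and 12.67 in the control samples. The 3 groups did not overlap at this probe, with betamethasone lowest, betamethasone with ketamine between, and control highest. The array means kept that order, at 12.07 and 12.02 for betamethasone with ketamine, 11.75 and 11.83 for betamethasone, and 12.37 and 12.56 for control. In this tissue RNA, less Grm4 RNA per cell and fewer cells that make it cannot be told apart.

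**Figure D1:**
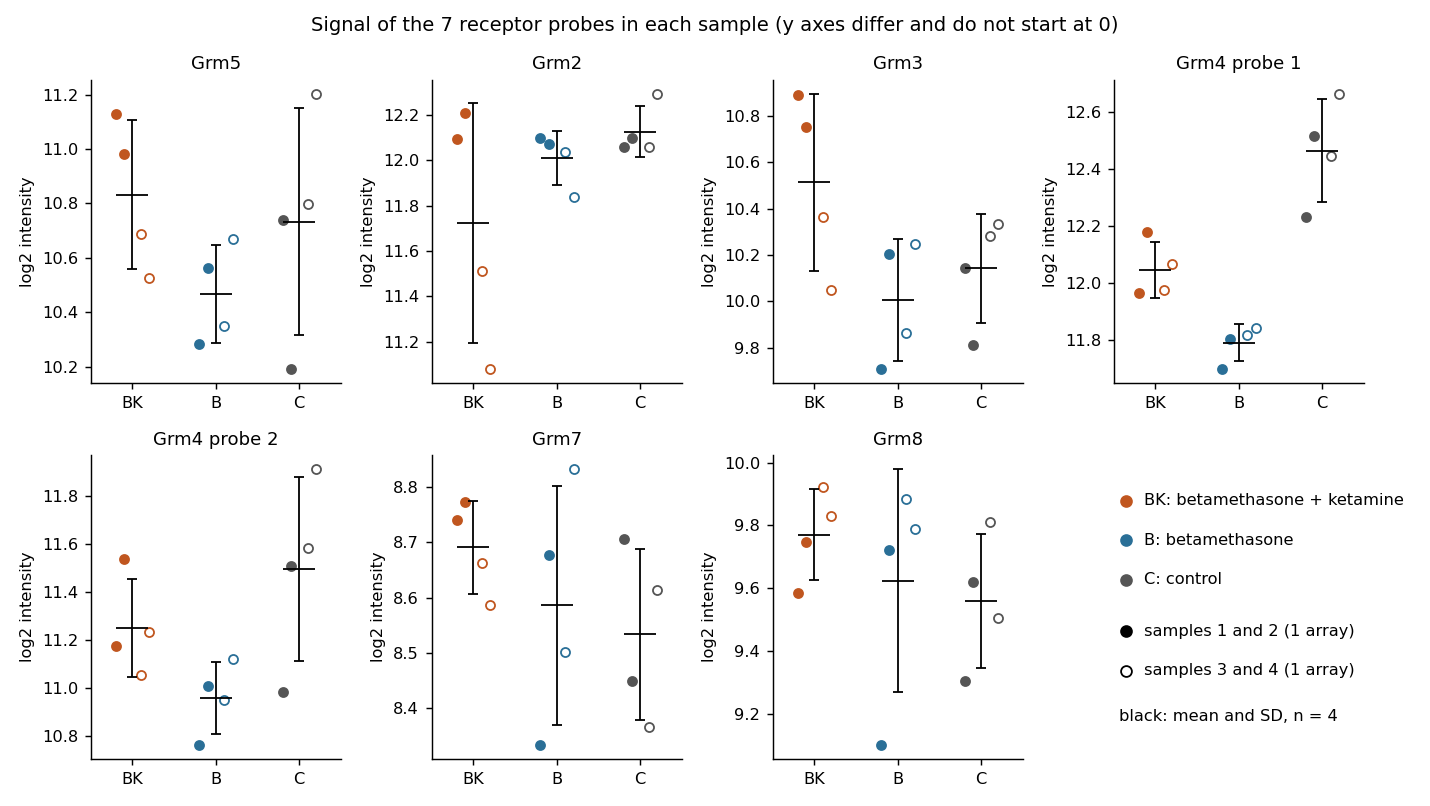
Normalised log2 intensity of each receptor probe in the 12 samples, with betamethasone with ketamine (BK), betamethasone (B) and control (C) from left to right; filled and open points are the 2 arrays of a group, and the black marks are the mean and SD of 4 samples. At Grm4 probe 1 the betamethasone samples lie between 11.70 and 11.84 and the control samples between 12.23 and 12.67, while the groups of Grm5, Grm2, Grm3, Grm7 and Grm8 overlap.

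Grm4 probe 1 averaged 11.79 ± 0.06 in betamethasone and 12.46 ± 0.18 in control (SD, n = 4 each), a log2 change of -0.68 (SE 0.10), or 1.60-fold lower. Probe 2 read 11.18, 11.54, 11.06 and 11.23 in betamethasone with ketamine, 10.76, 11.01, 10.95 and 11.12 in betamethasone, and 10.99, 11.51, 11.58 and 11.91 in control. Its log2 change for betamethasone minus control was -0.54 (SE 0.16), and control sample 1 lay within the betamethasone range, so the groups overlapped. Across the 12 samples the probes had a Pearson r of 0.88 with each other, and of 0.96 once each group's mean was taken out, as a description of values that share arrays, dyes and the transcript end. Of the 6 receptors, each by its brightest probe, 1 (Grm4, probe 1) was past an adjusted p of 0.05 in limma. The groups of 1 did not overlap, and the choice of the receptors fixed both counts. Grm4 probe 2 was not past that threshold among all kept probes. Over all 18688 genes, 0.246% passed and 18% had groups that did not overlap.

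Grm4 was chosen on betamethasone minus control and its groups did not overlap at probe 1, so a constant sign over refits is not a test. The log2 change of Grm4 in that comparison was below 0 in every refit, but its size depended on the processing. It was -0.34 with each array's median set equal in place of matching the distributions, and -0.43 with the scanner's processed signals. In the deposited value table it was -1.78, but the median of all genes stood at -1.11 there. Re-centred on the spots present in every column, an alternative chosen after seeing the data, the table gave -0.63. With each of the 12 samples left out in turn it stayed between -0.72 and -0.65, and with each array left out between -0.77 and -0.58. The limma call on which the selection rested was present in 9 of 17 other processings, and was absent with array means as the replicate and with the replicate block among others. The 9 include the deposited value table, where all 6 receptor genes were called. They also include refits of the same normalised values, such as those of the filter and the probe rule, so 9 of 17 is no measure of stability. It was also absent without control sample 1 (-0.72), 2 (-0.66) or 3 (-0.68), without betamethasone sample 1 (-0.68), 2 (-0.66), 3 (-0.71) or 4 (-0.65), and without either betamethasone array (-0.63 and -0.72).

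**Figure D2:**
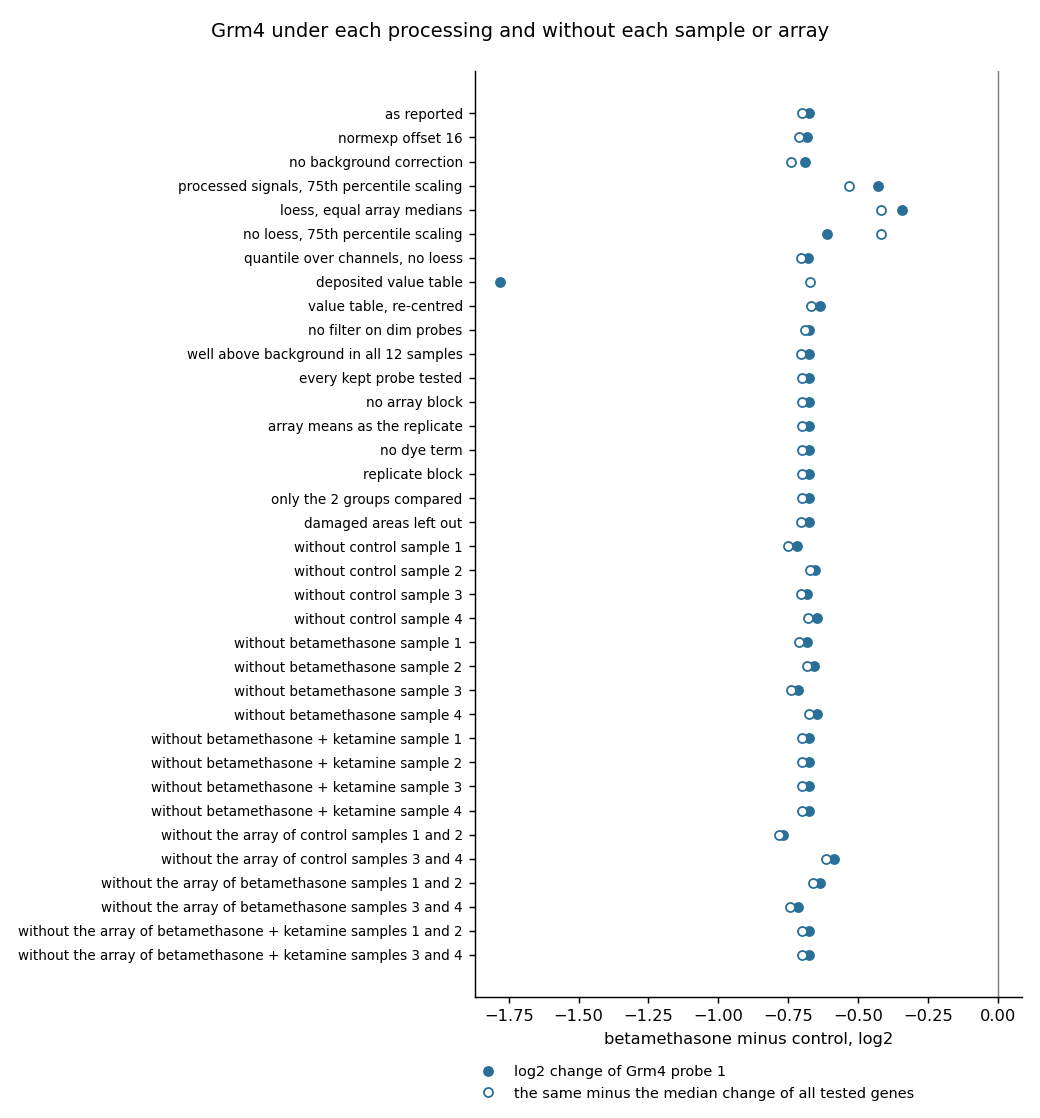
Log2 change of Grm4 probe 1, betamethasone minus control, as reported and under each other processing, without each sample and without each array; open points have the median change of all tested genes subtracted. Filled points run from -1.78 in the deposited value table to -0.34 with equal array medians, and from -0.72 to -0.65 with a sample left out. Every point lies below 0, which is not a test, because Grm4 was chosen on this comparison.

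Other values moved with these groups. The raw Grm4 probe 1 signal was 30.4 to 160 times the local background in the 8 samples of the slide that held both betamethasone groups, and 134 to 406 times in the control samples on the other slide. All 6 oligodendrocyte markers (among them Mbp, Mag and Cldn11) had lower values in both betamethasone groups than in control, though none passed. The mean log2 intensity of that list ranged from 10.20 to 11.13 in betamethasone with ketamine, from 9.89 to 10.88 in betamethasone and from 10.75 to 11.62 in control. Of 5 microglia markers, 4 had higher values in betamethasone than in control and 5 in betamethasone with ketamine than in control (median log2 change 0.29 and 0.27), and none passed. The mean of that list ranged from 11.63 to 11.68 in betamethasone with ketamine, from 11.49 to 11.57 in betamethasone and from 11.14 to 11.52 in control. Over all genes, 44% had lower values in betamethasone than in control, and 36.2% in betamethasone with ketamine than in control. Of 4 tested thalamic neuron markers, 4 and 3 were lower in the same order (median log2 change -0.088 and -0.094), and none passed. The part of slide, of myelinating cells, of microglia and of thalamic neurons in the Grm4 difference was not tested. Beside 71.4% to 81.5% of all spots in single samples, 4 of 6 cerebellar granule cell markers were well above background in all 12 samples. Gabra6 was so in some and Fat2 in none. The mean of that list ranged from 8.14 to 8.35 in betamethasone with ketamine, from 8.13 to 8.24 in betamethasone and from 8.08 to 8.23 in control.

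**Figure D3:**
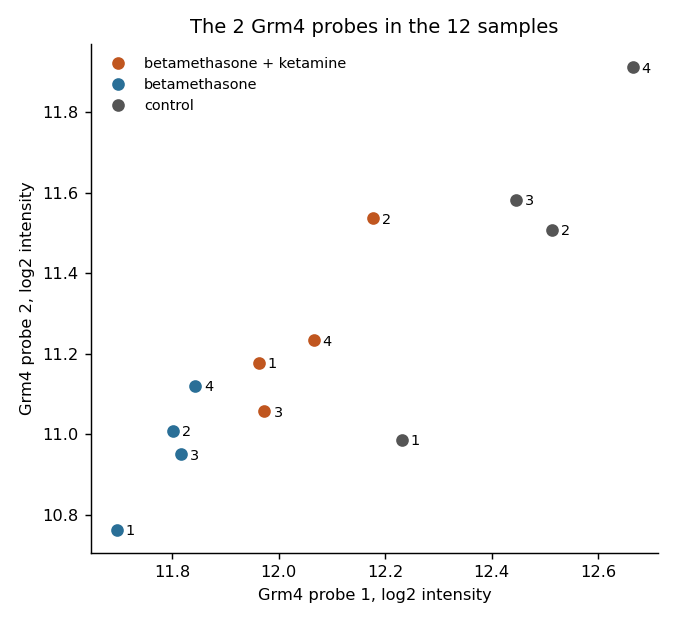
Log2 intensity of Grm4 probe 2 against Grm4 probe 1 in the 12 samples, coloured by group and numbered by sample. Betamethasone samples lie lowest on the probe 1 axis (11.70 to 11.84) but overlap the other groups on the probe 2 axis (10.76 to 11.12). Control sample 1 sits below the other control samples on both, at 12.23 and 10.99.

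After ketamine, Grm4 lay between the betamethasone and the control animals. Probe 1 averaged 12.04 ± 0.10 in betamethasone with ketamine and 11.79 ± 0.06 in betamethasone (SD, n = 4 each). The log2 change was 0.26 (95% interval 0.03 to 0.48), or 1.19-fold, and the groups did not overlap, but it did not pass over all genes (limma, adjusted p = 0.906). Probe 2 changed by 0.29 (95% interval -0.07 to 0.65), with overlapping samples. This comparison shares its betamethasone samples with the one on which Grm4 was chosen, so its sign is not independent of that choice. The sign also turned with the scaling, since equal array medians gave -0.25 at probe 1 with all genes at -0.10, and the other 7 scalings gave 0.14 to 0.26. With 75th percentile scaling and no loess it was 0.17, below the median of all genes at 0.32. Without the array of ketamine samples 1 and 2, which stood apart, the change was 0.23, and without that of samples 3 and 4 it was 0.28.

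Against control, Grm4 probe 1 in betamethasone with ketamine differed by -0.42 (SE 0.10), or 1.34-fold lower, and probe 2 by -0.25 (SE 0.16). These values use the same control samples as the betamethasone comparison and carry the same slide difference.

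Grm7, a group III receptor found at the active zone of many excitatory and inhibitory terminals, showed no separation of the groups. It read 8.59 to 8.77 in betamethasone with ketamine, 8.33 to 8.83 in betamethasone and 8.36 to 8.71 in control. The 4 ketamine samples lay inside the betamethasone range. Its log2 change was 0.05 (SE 0.18) for betamethasone minus control and 0.16 (SE 0.18) for betamethasone with ketamine minus control. After betamethasone, ketamine minus saline was 0.10 (95% interval -0.29 to 0.50, limma, adjusted p = 0.939). Its signal was the nearest to background of the 7 probes, down to 2.25 times the local background.

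Grm8, a presynaptic group III receptor of high glutamate affinity, read 9.58 to 9.92 in betamethasone with ketamine, 9.10 to 9.88 in betamethasone and 9.30 to 9.81 in control. Betamethasone sample 1, at 9.10, lay below every other sample, and the other 3 of that group stood at 9.72 to 9.88. The log2 change was 0.06 (SE 0.25) for betamethasone minus control and 0.21 (SE 0.25) for betamethasone with ketamine minus control. Ketamine minus saline after betamethasone was 0.15 (95% interval -0.41 to 0.70, limma, adjusted p = 0.940).

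Grm2, the group II autoreceptor of excitatory terminals, stood out for 2 low samples on 1 array. It read 12.09, 12.21, 11.51 and 11.08 in betamethasone with ketamine. It read 12.10, 12.07, 12.04 and 11.84 in betamethasone. It read 12.06, 12.10, 12.06 and 12.29 in control. Ketamine samples 3 and 4 were lower than all other samples, while ketamine samples 1 and 2 were within or above the betamethasone range, so the groups overlapped. The array means of the ketamine group were 12.15 and 11.30. Ketamine minus saline after betamethasone was -0.29 (95% interval -0.85 to 0.27, limma, adjusted p = 0.906). That value was -0.72 without the array of ketamine samples 1 and 2 and turned to 0.14 without that of samples 3 and 4. Betamethasone minus control was -0.12 (SE 0.25), and betamethasone with ketamine minus control was -0.40 (SE 0.25).

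Grm3, the group II receptor shared by neurons and astrocytes, had the largest ketamine minus saline value of the 6 genes. It read 10.89, 10.75, 10.36 and 10.05 in betamethasone with ketamine. It read 9.71, 10.21, 9.86 and 10.25 in betamethasone. It read 10.14, 9.81, 10.28 and 10.33 in control. The 2 samples on the first ketamine array were the highest of all 12, sample 3 lay just above all betamethasone and control samples, and sample 4 lay among them. Ketamine minus saline after betamethasone was 0.51 (95% interval -0.11 to 1.13, limma, adjusted p = 0.906). It was 0.20 without the array of ketamine samples 1 and 2 and 0.82 without that of samples 3 and 4 (adjusted p = 0.0531), and neither passed. The latter fit keeps only the ketamine array that stood apart, and 2294 of all genes passed in it. Betamethasone minus control was -0.14 (SE 0.28), and betamethasone with ketamine minus control was 0.37 (SE 0.28).

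The astrocyte markers also differed in that direction between the ketamine-treated and the saline-treated betamethasone animals. All 6 had higher values after ketamine, while 37.1% of all genes had lower ones. Their median log2 change was 0.21 beside 0.05 over all genes, and none passed. The mean log2 intensity of the list ranged from 12.46 to 12.79 in betamethasone with ketamine, from 12.26 to 12.55 in betamethasone and from 12.39 to 12.50 in control. Its part in the Grm3 values was not tested.

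Grm5, the group I receptor that couples to Gq at cortical synapses, was also highest on the first ketamine array within its group. It read 11.13, 10.98, 10.69 and 10.53 in betamethasone with ketamine. It read 10.28, 10.56, 10.35 and 10.67 in betamethasone. It read 10.74, 10.19, 10.80 and 11.20 in control. Control samples spanned the whole range of both other groups. Ketamine minus saline after betamethasone was 0.36 (95% interval -0.28 to 1.01, limma, adjusted p = 0.906), and it was 0.14 without the array of ketamine samples 1 and 2 and 0.59 without that of samples 3 and 4 (adjusted p = 0.209). Betamethasone minus control was -0.27 (SE 0.29), and betamethasone with ketamine minus control was 0.10 (SE 0.29). Across the 12 samples Grm5 and Grm3 had a Pearson r of 0.87, and of 0.88 with the group means taken out, the highest of the pairs of different receptors. These points share arrays and dyes, and the 2 samples of an array often moved together.

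**Figure D4:**
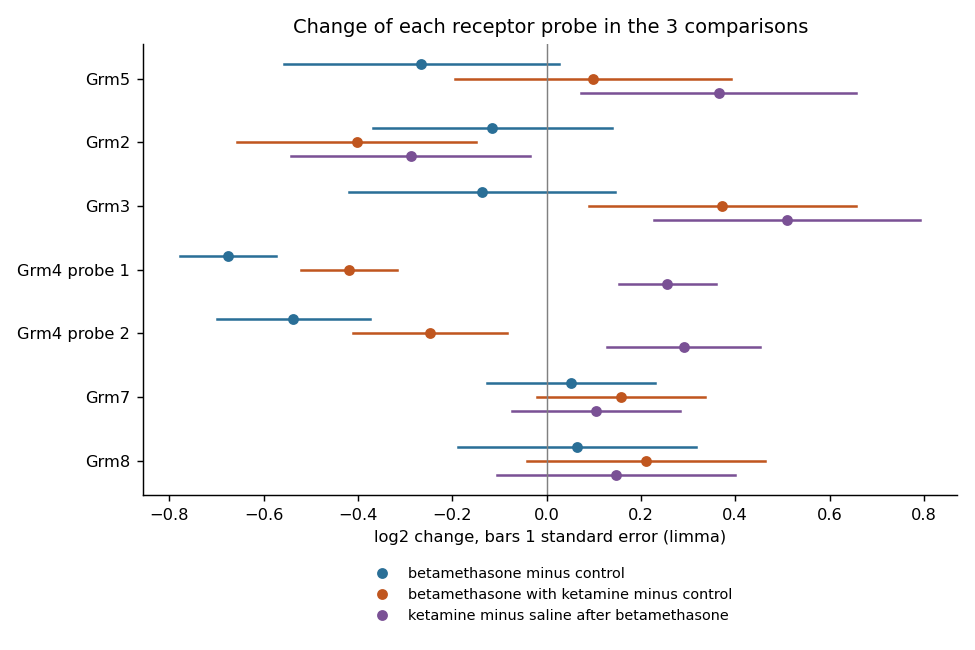
Log2 change of each receptor probe in the 3 comparisons, betamethasone minus control, betamethasone with ketamine minus control, and ketamine minus saline after betamethasone; points are limma estimates and bars are 1 standard error. Grm4 has the lowest betamethasone minus control values (-0.68 and -0.54), and Grm3 has the highest ketamine minus saline value (0.51). Grm4 was chosen on betamethasone minus control, so its place there is not a test.

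Counted over the 6 receptors, 0 passed for ketamine minus saline after betamethasone (limma), where 0% of all genes passed, and 1 (Grm4) had an unadjusted p under 0.05, as had 604 of all genes. Groups did not overlap for 1 of the 6 (Grm4, at probe 1 but not at probe 2), against 4.07% of all genes. Grm4 was chosen with these betamethasone samples, so neither count of 1 is a test. The receptors' median log2 change was 0.20 there, beside 0.05 over all genes. Under 8 other scalings the sign of this change was kept in 8 for Grm2, Grm3 and Grm7 and in 7 for Grm4, Grm5 and Grm8. The sign of betamethasone minus control was kept in 8 for Grm4 and Grm5, 7 for Grm3, 6 for Grm2, 5 for Grm8 and 4 for Grm7. For Grm4 this is not a test, because it was chosen on that comparison. With the median of all genes subtracted, it was kept in 8 for Grm3, Grm4 and Grm5, 7 for Grm8, 5 for Grm2 and 3 for Grm7. Ketamine minus saline then kept its sign in 6 for Grm4 probe 1 and in 8 for the other receptors. The value table enters these scalings both as it stood and re-centred. With the median subtracted, equal array medians and 75th percentile scaling without loess gave nearly the same values, so the 8 are not separate checks. For betamethasone with ketamine minus control, 0 of 6 passed and 1 (Grm4) had an unadjusted p under 0.05, as had 2633 of all 18688 genes. In that comparison 0.091% of all genes passed and 15.8% had groups that did not overlap, as did 1 of the 6 (Grm4, at probe 1 only). That comparison shares the control samples with which Grm4 was chosen, so its Grm4 counts are no test either. The adjusted p of the 5 receptors other than Grm4 ran from 0.480 to 0.892.

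Grm6, a group III receptor known from retinal ON bipolar cells that the selection did not include, averaged 8.13 in betamethasone with ketamine, 8.07 in betamethasone and 7.98 in control. It passed in none of the 3 comparisons (limma), with log2 changes between 0.06 and 0.15.

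The signalling genes around the receptors were read through 3 lists with 55 genes in all, of which 52 were tested. No gene of these lists passed in any of the 3 comparisons (limma), and 6, 9 and 1 had an unadjusted p under 0.05 for betamethasone minus control, betamethasone with ketamine minus control, and ketamine minus saline. Over all 18688 genes, 2182, 2633 and 604 did in the same order, a share near that of the lists. Their median log2 changes, in the same order, were -0.03, 0.06 and 0.06, beside 0.03, 0.07 and 0.05 over all genes. Without the array of ketamine samples 3 and 4, which leaves only the array that stood apart in that group, 4 passed for betamethasone with ketamine minus control and 6 for ketamine minus saline, as did 3100 and 2294 of all genes.

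In the group II and III pathway, which holds Gi/o subunits, adenylyl cyclases, protein kinase A and the GIRK potassium channels, 10 of 18 tested genes were lower in betamethasone than in control and 8 were higher. Kcnj6, a GIRK channel subunit, averaged 9.29 in betamethasone with ketamine, 9.39 in betamethasone and 10.01 in control. Its log2 change was -0.62 for betamethasone minus control (SE 0.22, adjusted p = 0.308 in limma) and -0.72 for betamethasone with ketamine minus control (adjusted p = 0.251). Kcnj3, the partner GIRK subunit, averaged 12.26 in betamethasone with ketamine, 11.86 in betamethasone and 12.28 in control. It had a change of -0.42 for betamethasone minus control (adjusted p = 0.391) and of 0.40 for ketamine minus saline (adjusted p = 0.906). Prkaca, the catalytic subunit of protein kinase A, was at -0.25 and -0.20 against control in betamethasone and in betamethasone with ketamine (adjusted p = 0.260 and 0.325). The adenylyl cyclase gene Adcy2 was at 0.41 for betamethasone with ketamine minus control (adjusted p = 0.322). For ketamine minus saline, the cyclase gene Adcy8 was at 0.25 and the G protein subunit gene Gng3 at -0.27 (adjusted p = 0.906 for both).

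In the group I pathway, with Gq and G11, phospholipase C, IP3 receptors and protein kinase C, 8 of 15 tested genes were lower in betamethasone than in control and 7 were higher. The phospholipase C gene Plcb1 averaged 11.20 in betamethasone with ketamine, 11.47 in betamethasone and 11.76 in control. Its log2 change was -0.56 for betamethasone with ketamine minus control (adjusted p = 0.301 in limma), -0.29 for betamethasone minus control (adjusted p = 0.613) and -0.27 for ketamine minus saline (adjusted p = 0.906). Plcb4 was at -0.29 for betamethasone minus control (adjusted p = 0.433) and 0.19 for ketamine minus saline. Gna11, which encodes the G11 alpha subunit, was at -0.43 for betamethasone minus control (adjusted p = 0.605). The kinase gene Prkca was at 0.18 for betamethasone with ketamine minus control (adjusted p = 0.476). The kinase gene Prkcb was at 0.42 for ketamine minus saline (adjusted p = 0.906).

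Among the partners and regulators, such as Homer scaffolds, receptor kinases, arrestins and calmodulins, 11 of 19 tested genes were lower in betamethasone than in control and 8 were higher. Arrb1, the beta-arrestin 1 gene, averaged 8.41 in betamethasone with ketamine, 8.40 in betamethasone and 8.72 in control, with a log2 change of -0.31 for betamethasone minus control (SE 0.10, adjusted p = 0.249 in limma) and -0.30 for betamethasone with ketamine minus control (adjusted p = 0.273). Rgs2, which speeds the shut-off of G protein signals, was at -0.44 for betamethasone minus control and -0.53 for betamethasone with ketamine minus control (adjusted p = 0.419 and 0.312). The receptor kinase gene Grk2 was at 0.43 for betamethasone minus control (adjusted p = 0.440), and the PDZ protein gene Grip1 at -0.32 for betamethasone with ketamine minus control (adjusted p = 0.402). For ketamine minus saline, Elfn1, a postsynaptic protein that recruits mGlu7, was at 0.41, the scaffold gene Homer1 at 0.21 and the calmodulin gene Calm3 at 0.20 (adjusted p = 0.906 for each).

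**Figure D5:**
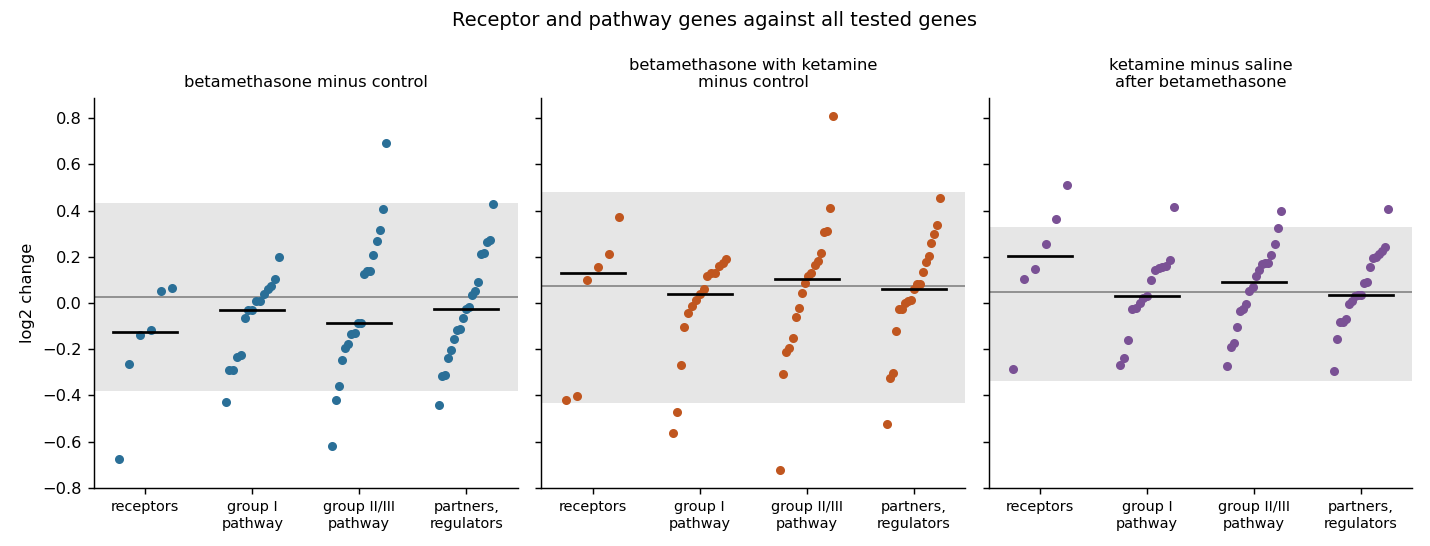
Log2 change of each tested gene of the 6 receptors and the 3 pathway lists, 1 panel per comparison; black lines are list medians, the grey line is the median of all 18688 genes and the grey band runs from the 5th to the 95th percentile of them. Medians of the pathway lists stay near the median of all genes (-0.03 for the pathway genes together beside 0.03 for betamethasone minus control). The receptor medians are -0.13, 0.13 and 0.20 from left to right, beside 0.03, 0.07 and 0.05 over all genes. Grm4 lies below the band in the betamethasone minus control panel. It was chosen on that comparison, so neither its place nor the receptor median in that panel is a test.

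The genes whose signal was most like that of Grm4 probe 1 over the 12 samples were Nrcam, a neuronal cell adhesion gene (Pearson r 0.96), Sema4a, a semaphorin gene (0.95), the F-box gene Fbxo10 (0.94), the sorting nexin gene Snx19 (0.94) and Pagr1 (0.93). Their betamethasone minus control changes lay between -1.35 and -0.33, since likeness over all samples follows the group means. With the group means taken out, the closest genes were Cript (0.94), which encodes a partner of synaptic scaffold proteins, Pafah1b3 (0.94), the tubulin gene Tubb4b (0.91), the hexokinase gene Hk1 (0.91) and the ribosomal protein gene Rps12 (0.90). These 5 had betamethasone minus control changes between -0.17 and 0.06. The correlations describe 12 samples that share 6 arrays and were picked as the highest of all genes with a symbol.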

How the data were processed

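The deposited scanner files gave, per the file headers, intensity values of the mean and median spot signal and the local background of each channel, from Feature Extraction 11.5.1.1 for the control arrays and 11.0.1.1 for the others, while the submitters' processing notes name 10.7.3.1. They also held the authors' processed intensity values and flags for spots well above background, saturated or outlying. A deposited value table held a ratio per spot and sample, which equalled the background-subtracted median signal over its column median. Its columns for control samples 1 and 2 held the scanner values of control samples 3 and 4 and the reverse, so it served as an alternative only, and control samples are numbered here by the scanner files assigned to them.

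Log2 values were computed from the deposited intensity values. Mean signals were corrected by normexp (offset 50), control spots and outlier flags were left out, and arrays were normalised by loess within and Aquantile between arrays. Each channel was 1 sample. A probe was kept where 3 or more samples of any group had it well above background (21533 of 30367). Genes were named by accession (18355 probes), symbol (2758) or synonym (422) from RefSeq tables of assembly GRCr8, and 8832 kept the file's name. The brightest probe stood for each of 18688 genes, with at least 3 values per group. Grm4 probe 2 was fitted among all kept probes. limma 3.58.1 (R 4.3.3, statmod 1.5.0) was fitted over all 12 samples with a dye term and the array as a random block (correlation 0.563). P-values were 2-sided and adjusted over all genes by Benjamini and Hochberg, with a threshold of 0.05. They set each change against the spread between samples of the same group, and 2 arrays per group limit the precision. Variation between slides is not part of that spread in comparisons with control, and the part of litters is unknown. The fit was tested on simulated data.

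The receptors and lists were chosen with earlier results of these data known. Named genes were every receptor probe, the 3 list genes with the smallest p in each list and comparison, and the 5 genes most like Grm4 by each correlation, some of which are not reported here. Samples of the same number in different groups were treated as not paired, and none of 12 such pairs had deviations from group means with a correlation over 0.1. This check cannot exclude a pairing, because group and dye means were removed first and the control numbers differ between the scanner files and the value table. Alternatives covered background correction, normalisation, the value table, the filter, the probe rule, the block, the dye term, the samples fitted, damaged areas, and leaving out each sample and each array.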

Additional observations from a re-analysis of the deposited data

Results flagged for a closer look

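For Grm2 in the control group, sample 4 at a log2 intensity of 12.29 stood far above the other 3 control samples, which lay between 12.06 and 12.10. By Dixon's test its gap to the nearest sample was 0.831 of the group's range, just above the 95% critical value for 4 samples. Chance flags about 1 in 20 groups, and 21 sets of 4 samples were examined. Without that sample the Grm2 change for betamethasone minus control was -0.04, and for betamethasone with ketamine minus control -0.32.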

How the results depend on the processing

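For betamethasone minus control, the number of receptor genes called was 1 as reported. It was 0 with no background correction, with the processed signals, with equal array medians, with 75th percentile scaling and no loess, with the re-centred value table (chosen after seeing the data), with array means as the replicate, with no dye term and with the replicate block. It was 6 in the deposited value table, where columns lacked values for 1.44% to 15.8% of the spots in control and 20.4% to 39.9% in the other groups. Without single samples it lay between 0 and 1, and it was 0 without either betamethasone array. For betamethasone with ketamine minus control, the receptor count of 0 became 6 in the value table, 1 with no array block and 1 without the array of ketamine samples 3 and 4. For ketamine minus saline it stayed 0 in every fit. Pathway genes called for betamethasone minus control numbered 0 as reported, 44 in the value table, 2 with no array block, 1 without the array of control samples 1 and 2 and 1 without that of ketamine samples 1 and 2. For betamethasone with ketamine minus control they numbered 44 in the value table, 1 with no array block, 1 without the array of control samples 1 and 2, 1 without that of ketamine samples 1 and 2 and 4 without that of ketamine samples 3 and 4. For ketamine minus saline they numbered 6 without that last array. Where an array is left out, the lone array of a group is assumed to vary like the others. The cause of these moves was not tested.

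Of 735 changes of receptor probes refitted in 3 comparisons, 708 moved by less than the larger SD of the groups compared. Of the 735, 39 changed sign, none of them a called change. Many refits, such as those of the block, the dye term or samples outside the comparison, could hardly move a change. The 708 is therefore no measure of stability. Under the replicate block the Grm4 change was -0.68 and did not pass, and 28 of all genes were called, and same-numbered samples had correlations from -0.134 to 0.0384. Over the other processings the count of all genes called for betamethasone minus control, 46 as reported, ran from 0 to 13510. For betamethasone with ketamine minus control, 17 as reported, it ran from 0 to 13320. The median of all genes moved by over 0.1 in the value table (to -1.11 and -1.03 against control), with 75th percentile scaling without loess (to -0.195 for betamethasone minus control and 0.32 for ketamine minus saline) and with equal array medians for ketamine minus saline (to -0.10). It also moved with the processed signals for betamethasone with ketamine minus control (to 0.185).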
